A study of Mus musculus with 6 samples.

Results

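The 8 genes described here are Lmo1, Lmo2, Lmo4, Ldb1, Tal1, Lyl1, Gata2 and Gata3, which encode LIM-only proteins, the cofactor LDB1 and the basic helix-loop-helix and GATA factors that bind with them. They were chosen by name from 22099 genes, with values of these libraries in view, and the high Lmo1 level in the ZnF4 mutant was among those values. The differences between the ZnF4 mutant and the other groups are therefore given for these genes as a description, without a test. The libraries were made from polyadenylated RNA of pro-B acute lymphoblastic leukaemia cells from C57BL/6 mice. A retrovirus had brought the p185 form of the BCR-ABL oncogene, with a yellow fluorescent marker, into whole bone marrow, and the cells were collected after 14 days in culture. The ZnF4 mutant (Ikaros-ZnF4-/-) and the ZnF1 mutant (Ikaros-ZnF1-/-) lacked, on both alleles, the fourth or the first zinc finger of Ikaros, and the third group was wild type (wt). Each of the 3 groups had 2 biological replicates, and all 3 groups carried the same oncogene. No sort for transduced cells is mentioned in the labels.

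LIM-only proteins bind no DNA themselves. They bridge LDB1, which dimerises, to DNA-bound pairs of an E protein with TAL1 or LYL1 and to a GATA factor, and this complex is known for its work in blood stem cells and red cell precursors. LMO1, LMO2, TAL1 and LYL1 are known as oncogenes of T cell leukaemia, where chromosome breaks or regulatory mutations switch them on in cells of the T lineage. Ikaros is a zinc finger factor that binds the core sequence GGGAA, and it is a tumour suppressor in B cell leukaemia with BCR-ABL.

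The promoters of 3 members are printed. Lmo1 is a gene that differed between genotypes, and Ldb1 and Lyl1 are genes that differed mainly between replicate numbers. The windows run from 250 to 41 bases before the gene's most upstream RefSeq start (build GRCm38.p6, read on the gene's strand), and capitals mark GGGAA or its reverse complement TTCCC. For Lmo1 this start lies upstream of that of the transcript measured here, whose own promoter window was not used. Ldb1 has 3 such windows, and whether the printed one belongs to the transcript with most of its level was not checked.
Lmo1, chr7:109175248-109175457, minus strand: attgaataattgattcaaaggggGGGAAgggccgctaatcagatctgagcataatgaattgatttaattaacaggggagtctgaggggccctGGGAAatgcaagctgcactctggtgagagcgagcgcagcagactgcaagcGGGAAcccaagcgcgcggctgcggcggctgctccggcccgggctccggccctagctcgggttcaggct
Ldb1, chr19:46045352-46045561, minus strand: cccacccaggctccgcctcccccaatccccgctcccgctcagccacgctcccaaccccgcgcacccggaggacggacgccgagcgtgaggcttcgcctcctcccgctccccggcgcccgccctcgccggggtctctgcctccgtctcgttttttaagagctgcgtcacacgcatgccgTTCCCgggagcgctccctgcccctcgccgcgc
Lyl1, chr8:84701207-84701416, plus strand: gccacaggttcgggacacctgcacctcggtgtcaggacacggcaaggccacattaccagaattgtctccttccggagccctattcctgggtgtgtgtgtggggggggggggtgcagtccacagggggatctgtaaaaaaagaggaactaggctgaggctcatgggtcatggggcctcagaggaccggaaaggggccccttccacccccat

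The Lmo1 window held 3 GGGAA matches, the Ldb1 window held 1 and the Lyl1 window held 0, both strands counted. Over all 32851 RefSeq promoter windows of this length, 50.2% held at least 1 match and 16.4% held 2 or more. The GATA motif AGATAA was in none of the 3 windows, against 8.77% of all windows. The E-box CANNTG was found 1 time, in the Lyl1 window, against 60.7% of all windows with at least 1. The GC content was 58.6% in the Lmo1 window, 74.3% in the Ldb1 window and 61% in the Lyl1 window, and the median of all windows was 51.9%. These matches describe the letters of the windows and are not binding data. A window was found for 7 of the 8 members, all but Lmo2.

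Levels are in RPKM, which divides the reads of a transcript by its length and by the size of the library. Levels of different genes can be set beside each other only roughly, since RPKM does not correct for the GC content of a transcript. The test took in the 11345 genes that reached 1 RPKM in 2 or more libraries, and 5 of the 8 members were among them. Tal1, Gata2 and Gata3 did not pass this filter and were not tested. Log2 differences are on the log2(RPKM + 1) scale, with a standard error (SE) from the limma fit of all 6 libraries. On this scale the change of a gene with low values comes out smaller than its ratio.

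The cells carried the profile named by their labels. All 10 pro-B and pre-B markers were present in every group, with a summed level of 3549 and 2359.1 RPKM in the ZnF4 mutant, 3546.9 and 3010.2 RPKM in the ZnF1 mutant, with 3193.3 and 2425.5 RPKM in wt. Other marrow cells were also represented, unevenly. Summed markers of macrophages and granulocytes came to 235 and 299.9 RPKM in the ZnF4 mutant, 681.5 and 2239 RPKM in the ZnF1 mutant, with 701.3 and 275 RPKM in wt. The granulocyte gene S100a8 was highest in ZnF1 mutant replicate 2 and wt replicate 1, so the values below were also computed without these 2 libraries. That leaves replicate 1 of the ZnF1 mutant and replicate 2 of wt, so those groups then also differ in replicate number. In RNA from whole cultures, fewer cells of a type and less RNA per cell cannot be told apart.

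**Figure D1:**
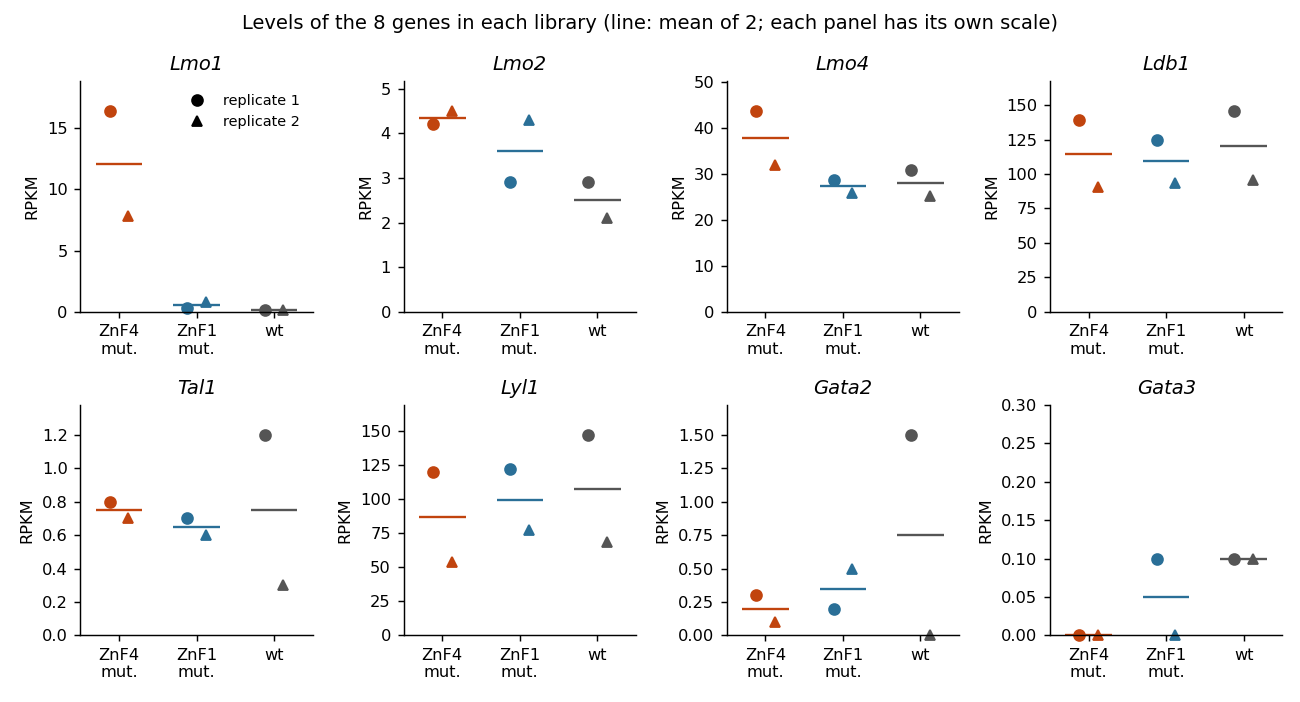
RPKM of the 8 genes in each library, by group, with circles for replicate 1, triangles for replicate 2 and a line at the mean of 2. Lmo1 stood at 7.8 and 16.4 RPKM in the ZnF4 mutant and at or below 0.8 in the other 4 libraries, and Ldb1 and Lyl1 were higher in replicate 1 than in replicate 2 in all 3 groups.

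Lmo1, a LIM-only protein normally made mainly in the nervous system, was the member that differed most between genotypes. It stood at 16.4 and 7.8 RPKM in the ZnF4 mutant, 0.3 and 0.8 RPKM in the ZnF1 mutant, with 0.1 and 0.1 RPKM in wt. The groups did not overlap in any pairing, with both ZnF4 mutant libraries high, wt at the lowest value that the table writes above 0, and the ZnF1 mutant between them. The means were 12.1 ± 6.08 RPKM (SD, n = 2) in the ZnF4 mutant, 0.55 ± 0.354 in the ZnF1 mutant and 0.1 ± 0 in wt. The values of the ZnF4 mutant replicates differed from each other by more than all the values of the other 2 groups did.

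The Lmo1 level in the ZnF4 mutant was 121 times that in wt, and since values are written to 1 decimal, rounding alone allows a ratio of 80.3 to 243. Against the ZnF1 mutant the ratio was 22, for which rounding allows 20.1 to 24.3. On the log2(RPKM + 1) scale the difference was 3.49 (SE 0.36) for the ZnF4 mutant against wt and 3.02 (SE 0.36) for the ZnF4 mutant against the ZnF1 mutant. With a pseudocount of 0.1 in place of 1 the difference from wt was 5.84. Without ZnF1 mutant replicate 2 and wt replicate 1 the differences were 3.49 from wt and 3.25 from the ZnF1 mutant.

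In the ZnF1 mutant both Lmo1 values were above both wt values, at low levels. The difference from wt was 0.48 on the log2(RPKM + 1) scale (95% interval -0.43 to 1.39, limma adjusted p = 0.952). It was 0.24 without ZnF1 mutant replicate 2, with or without wt replicate 1, 0.71 without ZnF1 mutant replicate 1, and 1.58 (adjusted p = 0.334) with a pseudocount of 0.1. Of all 11345 genes tested, 18.3% had both ZnF1 mutant libraries above both wt libraries. The ratio of means was 5.5, and rounding alone allows 3.33 to 12. Lmo1 passed the filter on low values only through the ZnF4 mutant libraries, and a pseudocount of 1 compresses values this low, so nothing is read from this p.

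The table holds 1 row for Lmo1, NM_057173, a transcript of 1075 bases. A non-coding gene overlaps Lmo1 in the RefSeq annotation (Gm44781), as others do Lmo2, Tal1, Gata2 and Gata3, and with strand use unknown their levels are uncertain to that extent. The protein-coding genes next to Lmo1 on chromosome 7 in the RefSeq annotation showed no such pattern. Tub was listed at 0 in all 6 libraries, Stk33 was listed at 0 in all 6, and Ric3 was at 0.2 RPKM in all 6. Trim66 stood at 0.1 RPKM in both ZnF4 mutant libraries, 0.1 in both ZnF1 mutant libraries and 0 in both wt libraries.

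The genes whose pattern was most like that of Lmo1 were sought among the 2873 tested genes that ranged by over 1 on the log2(RPKM + 1) scale. The measure was the Pearson correlation over the 6 libraries, given as a description. Plekha7, a protein of epithelial cell junctions, had a correlation of 0.9968 and stood at 4.2 and 2.2 RPKM in the ZnF4 mutant, 0.2 and 0.3 in the ZnF1 mutant, with 0.1 and 0.1 in wt. Glt1d1, a glycosyltransferase domain protein, had a correlation of 0.9961 and stood at 2.2 and 1.4 RPKM in the ZnF4 mutant, 0 and 0.1 in the ZnF1 mutant, with 0 and 0 in wt. Sh3gl3, an endophilin of vesicle uptake, had a correlation of 0.9958 and stood at 2.4 and 1.5 RPKM in the ZnF4 mutant, 0.1 and 0.2 in the ZnF1 mutant, with 0.1 and 0.1 in wt. All 3 genes were lower in level than Lmo1 in the ZnF4 mutant. Like it, they were higher in replicate 1 than in replicate 2 there, which follows from their choice by correlation.

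**Figure D2:**
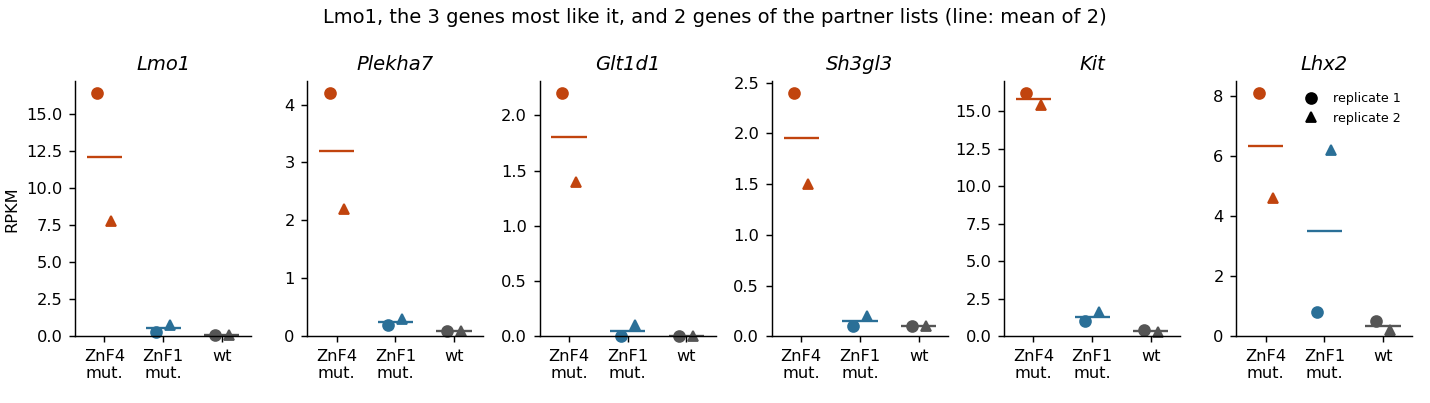
RPKM in each library of Lmo1, of the 3 genes with the most similar pattern, and of Kit and Lhx2, with circles for replicate 1, triangles for replicate 2 and a line at the mean of 2. Lmo1, Plekha7, Glt1d1, Sh3gl3 and Kit were low in all ZnF1 mutant and wt libraries, whereas Lhx2 reached 6.2 RPKM in ZnF1 mutant replicate 2.

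Lmo2, the LIM-only protein of blood stem cells, was low in all groups. It stood at 4.2 and 4.5 RPKM in the ZnF4 mutant, 2.9 and 4.3 RPKM in the ZnF1 mutant, with 2.9 and 2.1 RPKM in wt. Both ZnF4 mutant values were above both wt values, and the ZnF1 mutant values spanned the range between, overlapping both groups. The difference was 0.62 (log2, SE 0.22) for the ZnF4 mutant against wt and 0.23 (SE 0.22) for the ZnF4 mutant against the ZnF1 mutant, which was 0.01 without ZnF1 mutant replicate 1 and 0.46 without its replicate 2. For the ZnF1 mutant against wt it was 0.39 (95% interval -0.17 to 0.94, limma adjusted p = 0.746).

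Of the 4 Lmo2 rows, NM_001142335 held 95.7% of the summed level, and 89.7% to 100% in single libraries. NM_008505 held 4.31%, and NM_001142336 and NM_001142337 were listed at 0 in all libraries. The sources used here do not say how reads shared between transcripts were assigned, so these shares do not measure the use of start sites.

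Lmo4, the LIM-only protein found in most tissues, was the most abundant of the 3. It stood at 43.6 and 31.8 RPKM in the ZnF4 mutant, 28.6 and 25.9 RPKM in the ZnF1 mutant, with 30.9 and 25.1 RPKM in wt. Both ZnF4 mutant values lay above all other values, the lower of them only just above wt replicate 1, and the ZnF1 mutant and wt overlapped. The difference was 0.41 (log2, SE 0.21) for the ZnF4 mutant against wt and 0.44 (SE 0.21) for the ZnF4 mutant against the ZnF1 mutant. Without ZnF4 mutant replicate 1 they were 0.18 and 0.22, and without ZnF4 mutant replicate 2 they were 0.63 and 0.66. Without wt replicate 2 the first was 0.26. For the ZnF1 mutant against wt it was -0.03 (95% interval -0.57 to 0.51, limma adjusted p = 1).

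The Lmo4 row NM_001161769 held 87.3% of the level, at 35.8 and 29.7 RPKM in the ZnF4 mutant, 23.8 and 24.9 in the ZnF1 mutant, with 24.4 and 23.6 in wt. In this row the ZnF4 mutant also stood above both other groups without overlap. The row NM_010723 followed the replicate number instead, at 4.1 and 0.7 RPKM in the ZnF4 mutant, 2.7 and 0.3 in the ZnF1 mutant, with 4.0 and 0.6 in wt. NM_001161770 had the same order, at 3.7 and 1.4, 2.1 and 0.7, and 2.5 and 0.9 RPKM in the ZnF4 mutant, the ZnF1 mutant and wt.

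Lmo1, Lmo2 and Lmo4 thus each had both ZnF4 mutant libraries above both wt libraries, which makes 3 of the 5 members tested. Over all genes tested this held for 17.8%, and 2.72% were called in the ZnF4 mutant against wt in either direction. Lmo1 and Lmo4 also had both ZnF4 mutant libraries above both ZnF1 mutant libraries, as did 21.7% of all genes tested. Since the members were chosen with the ZnF4 mutant values in view, nothing is read from these counts. The order of the LIM-only genes by level differed between groups. In both ZnF4 mutant libraries Lmo4 was above Lmo1 and Lmo1 above Lmo2, whereas in all ZnF1 mutant and wt libraries Lmo2 was above Lmo1. No member passed the threshold in the ZnF1 mutant against wt (0 of 5, with no unadjusted limma p under 0.05). Lmo1 is among these 5, but its p is not read, since it passed the filter only through the ZnF4 mutant libraries. Over all genes, 0% were called with limma in this comparison and 1281 genes (11.3%) had an unadjusted p under 0.05.

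Ldb1, the dimerising adaptor, and Lyl1, a basic helix-loop-helix partner of E proteins, were the most abundant members in every library. Ldb1 stood at 139.2 and 90.3 RPKM in the ZnF4 mutant, 125.0 and 93.1 RPKM in the ZnF1 mutant, with 145.6 and 95.3 RPKM in wt. The 3 groups overlapped, with all replicate 1 libraries high and all replicate 2 libraries low. The means were 115 ± 34.6 RPKM (SD, n = 2) in the ZnF4 mutant, 109 ± 22.6 in the ZnF1 mutant and 120 ± 35.6 in wt. The difference was -0.07 (log2, SE 0.33) for the ZnF4 mutant against wt and 0.06 (SE 0.33) for the ZnF4 mutant against the ZnF1 mutant. With 1 library left out both changed sign, running from -0.38 to 0.24 and from -0.25 to 0.36. For the ZnF1 mutant against wt it was -0.13 (95% interval -0.95 to 0.7, limma adjusted p = 1). The row NM_001113408 held 98.3% of the Ldb1 level.

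Lyl1 stood at 119.8 and 54.1 RPKM in the ZnF4 mutant, 122.1 and 77.6 RPKM in the ZnF1 mutant, with 147.5 and 68.5 RPKM in wt. Here too the groups overlapped, and the 3 replicate 1 libraries were above the 3 replicate 2 libraries. The means were 87 ± 46.5 RPKM (SD, n = 2) in the ZnF4 mutant, 99.8 ± 31.5 in the ZnF1 mutant and 108 ± 55.9 in wt. The difference was -0.32 (log2, SE 0.54) for the ZnF4 mutant against wt and -0.27 (SE 0.54) for the ZnF4 mutant against the ZnF1 mutant. With 1 library left out both changed sign here too, running from -0.88 to 0.25 and from -0.84 to 0.3. For the ZnF1 mutant against wt it was -0.05 (95% interval -1.41 to 1.32, limma adjusted p = 1). These intervals leave room for sizeable differences of Ldb1 and Lyl1 in either direction. The fit had no term for replicate number, so the gap between replicate numbers counts as spread in them.

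Among same-numbered libraries Lyl1 was lower in the ZnF4 mutant than in wt in both numbers, at 119.8 against 147.5 RPKM in replicate 1 and 54.1 against 68.5 RPKM in replicate 2. Ldb1 was also lower in both numbers, at 139.2 against 145.6 RPKM and 90.3 against 95.3 RPKM. In the ZnF1 mutant Ldb1 was likewise below wt in both numbers, at 125.0 against 145.6 RPKM and 93.1 against 95.3 RPKM. Lyl1 there was lower in replicate 1, at 122.1 against 147.5 RPKM, and higher in replicate 2, at 77.6 against 68.5 RPKM. These gaps were smaller than those between replicate numbers within a group. The share of all genes with such an order was not computed, so nothing is read from it. Replicate 1 was 1.34 to 1.54 times replicate 2 for Ldb1 and 1.57 to 2.21 times for Lyl1.

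Of the 5 members tested, Ldb1 and Lyl1 had all replicate 1 libraries above all replicate 2 libraries, as did 25.3% of all genes tested. They were also the members whose replicate 1 was at least 1.3 times replicate 2 in each group, as it was for 19.8% of all genes. Across genes the replicate difference moved with the GC content of the transcript. The Pearson correlation over the 11142 genes with a value was 0.675 for the mean of the 3 groups, 0.687 in the ZnF4 mutant, 0.469 in the ZnF1 mutant and 0.623 in wt. The median log2 difference of replicate 1 minus replicate 2 was -0.31 in the fifth of genes with the lowest GC content and 0.53 in the fifth with the highest. The Lyl1 transcript had a GC content of 62.6%, at or above that of 98.8% of genes, and a mean replicate difference of 0.96. Ldb1 had 60.5%, at or above that of 96.3% of genes, and a replicate difference of 0.55. Lmo1, Lmo2 and Lmo4 had GC contents of 53.7%, 53.8% and 47.2% and mean replicate differences of 0.17, -0.06 and 0.29. The Lmo1 mean joins unlike values, 0.98 in the ZnF4 mutant, -0.47 in the ZnF1 mutant and 0 in wt. Lmo4 was at 0.44, 0.14 and 0.29 in the same order of groups. Genes binned at a median GC content of 47.06% had medians of -0.129, -0.035 and -0.12. The part of GC content in the levels of single genes was not tested.

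**Figure D3:**
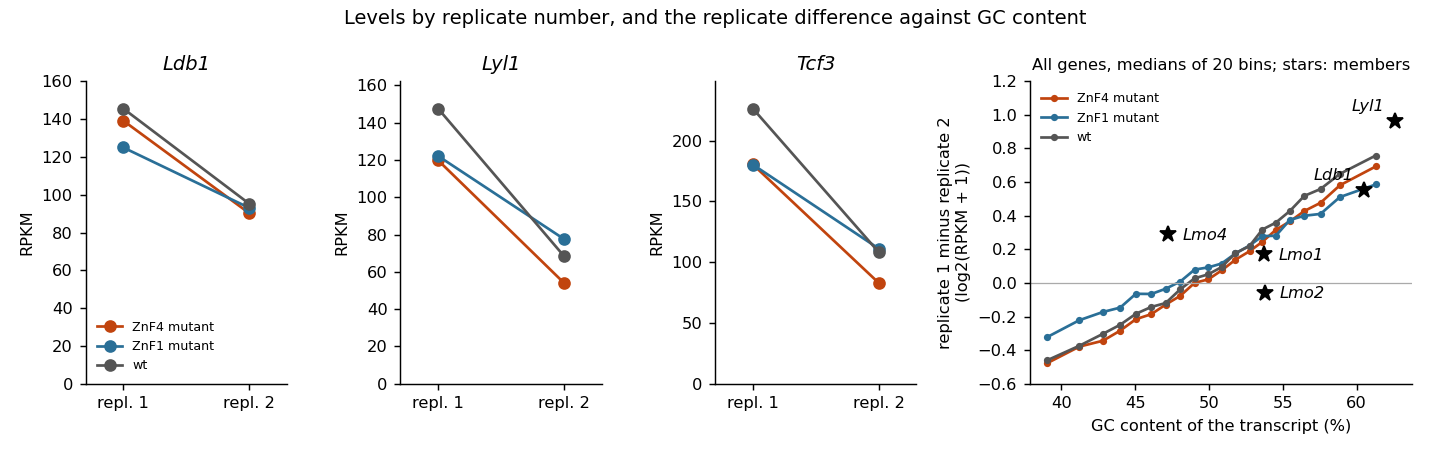
The left panels give RPKM of Ldb1, Lyl1 and the E protein gene Tcf3 in replicates 1 and 2 of each group, joined by lines. The right panel gives the log2(RPKM + 1) difference of replicate 1 minus replicate 2 against transcript GC content, as medians of all genes in 20 bins per group, with stars for the mean of the 3 groups of the 5 members tested; Lyl1 at 62.6% GC had the largest replicate difference of the 5.

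The genes most like Lyl1 over the 6 libraries shared this replicate pattern, which follows from their choice by correlation. Tcf3, which encodes the E proteins E12 and E47 that pair with LYL1 and TAL1, had a Pearson correlation of 0.9962 with Lyl1. Tcf3 stood at 180.4 and 83 RPKM in the ZnF4 mutant, 180.3 and 111.2 in the ZnF1 mutant, with 226.4 and 108.3 in wt. Its transcript had a GC content of 61.2%, and its mean replicate difference was 0.95. Mark2, a kinase of cell polarity, had a correlation of 0.9954 and stood at 43.5 and 23.8 RPKM in the ZnF4 mutant, 44.0 and 29.1 in the ZnF1 mutant, with 50.1 and 27.0 in wt. Pgls, an enzyme of the pentose phosphate pathway, had a correlation of 0.9926 and stood at 132.8 and 54.7 RPKM, 156.3 and 80.1 RPKM, and 187.1 and 77.3 RPKM in the same order of groups.

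Lyl1 overlaps Nfix, a nuclear factor I gene, in the RefSeq annotation. The sources used here do not say whether reads were counted by strand, so levels of both genes are uncertain where they share sequence. Nfix stood at 20.6 and 12.3 RPKM in the ZnF4 mutant, 3.1 and 2.6 in the ZnF1 mutant, with 2.8 and 2.0 in wt. It rose in the ZnF4 mutant by 2.33 against wt (log2, limma adjusted p = 0.0242) and by 2.14 against the ZnF1 mutant (adjusted p = 0.0247). The call against wt was lost without any 1 of the 6 libraries (adjusted p of 0.0659 to 0.129), without the filter on low values (adjusted p = 0.0508) and with only the 4 libraries compared (adjusted p = 0.0702). The call against the ZnF1 mutant was lost without any 1 of the 4 libraries compared (adjusted p of 0.0802 to 0.144). Without ZnF1 mutant replicate 2 and wt replicate 1 the adjusted p was 0.417 against wt and 0.249 against the ZnF1 mutant. Nfix was named after its values were seen. Its pattern was not that of Lyl1, whose ZnF4 mutant values were not above those of the other groups.

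Tal1, the helix-loop-helix factor of blood stem cells and red cell precursors, stood at 0.8 and 0.7 RPKM in the ZnF4 mutant, 0.7 and 0.6 RPKM in the ZnF1 mutant, with 1.2 and 0.3 RPKM in wt. The highest and the lowest value were both in wt, and the groups overlapped. Gata2, a GATA factor of stem cells and mast cells, stood at 0.3 and 0.1 RPKM in the ZnF4 mutant, 0.2 and 0.5 RPKM in the ZnF1 mutant, with 1.5 and 0 RPKM in wt. Wt replicate 1 stood apart from the other 5 libraries, and wt replicate 2 was the only one listed at 0. Gata3, the GATA factor of T cells, was listed at 0 and 0 RPKM in the ZnF4 mutant, 0.1 and 0 in the ZnF1 mutant, with 0.1 and 0.1 in wt, the smallest steps that the table can write.

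The library with the highest Gata2 and Tal1 also had the highest summed markers of mast cells and of red cells and megakaryocytes, though not the highest level of every marker. The 10 markers of mast cells and basophils summed to 6.2 and 4.8 RPKM in the ZnF4 mutant, 0.6 and 10.3 RPKM in the ZnF1 mutant, with 29.3 and 0.5 RPKM in wt. The mast cell protease gene Cpa3 stood at 3.1 and 2.6 RPKM in the ZnF4 mutant, 0 and 4.9 in the ZnF1 mutant, with 11.7 and 0.3 in wt, whereas Ms4a2, Tpsab1 and Mcpt4 were listed at 0 in all libraries. The 12 erythroid and megakaryocyte markers summed to 24 and 31.8 RPKM in the ZnF4 mutant, 31.1 and 36 RPKM in the ZnF1 mutant, with 56.4 and 20 RPKM in wt, and none was at 0 in all libraries. Most of this sum was the platelet factor gene Pf4, at 21.5 and 29.4 RPKM in the ZnF4 mutant, 26.9 and 27.7 in the ZnF1 mutant, with 30.5 and 18.6 in wt. Itga2b, the platelet integrin chain, was at 3.1 RPKM in wt replicate 1 and at 0.1 to 0.5 RPKM elsewhere. Gata1, the GATA factor of red cells and megakaryocytes, was at 1.4 RPKM in wt replicate 1 and at 0.1 to 0.3 RPKM elsewhere. The part of these cells in the Gata2 and Tal1 levels was not tested.

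**Figure D4:**
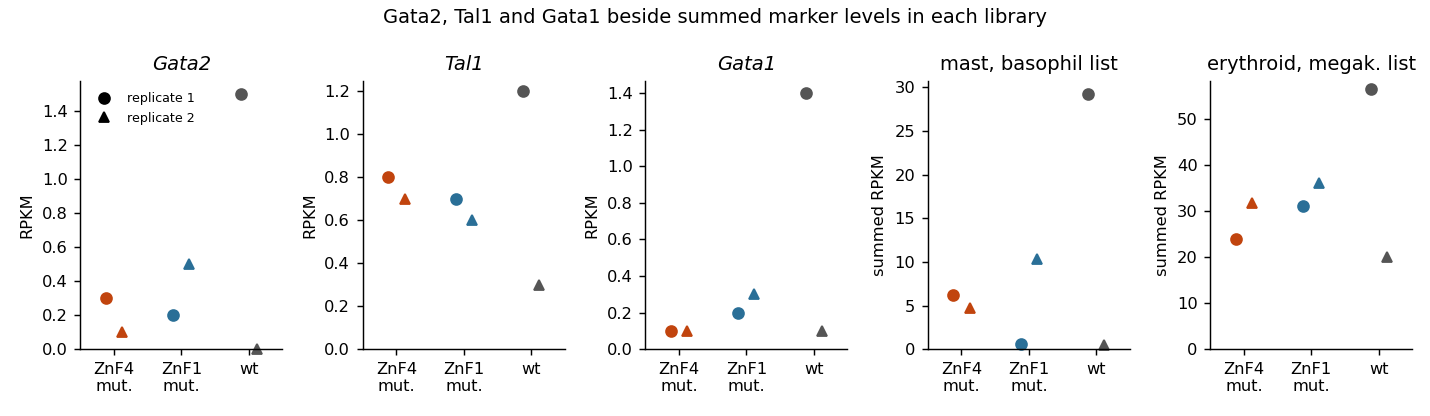
RPKM of Gata2, Tal1 and Gata1 and the summed RPKM of 10 mast cell and basophil markers and 12 erythroid and megakaryocyte markers in each library, with circles for replicate 1 and triangles for replicate 2. Wt replicate 1 was highest in all 5 panels, at 1.5 RPKM for Gata2.

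The sum of the T and NK cell markers was not highest where Lmo1 was. It came to 22.4 and 18.7 RPKM in the ZnF4 mutant, 61 and 33.2 RPKM in the ZnF1 mutant, with 49.3 and 29.3 RPKM in wt. Of the 14 markers 7 were at 0 in all libraries, among them Cd3e, Cd3g, Cd8a and Bcl11b. Most of the sum was Lck, a kinase that B lineage cells can also express, so the sum mainly gives the order of Lck. Lck stood at 18.1 and 15.0 RPKM in the ZnF4 mutant, 53.4 and 26.6 in the ZnF1 mutant, with 46.2 and 27.4 in wt. Tcf7 of the same list had another order. It stood at 3.9 and 2.3 RPKM in the ZnF4 mutant, 5.5 and 4.1 in the ZnF1 mutant, with 2.2 and 1.5 in wt. The 7 endothelial markers summed to 13.3 and 12.4 RPKM in the ZnF4 mutant, 28.1 and 25.1 in the ZnF1 mutant, with 20.4 and 19.2 in wt. Most of this sum was Pecam1, at 9.9 and 9.4 RPKM in the ZnF4 mutant, 25.8 and 22.4 in the ZnF1 mutant, with 18.6 and 18.3 in wt. So the sum mainly gives the order of that gene. Of the 7, the endothelial cadherin gene Cdh5 was highest in the ZnF4 mutant like Lmo1. It stood at 2.1 and 1.3 RPKM there, against 0.1 and 0.1 in the ZnF1 mutant, with 0 and 0 in wt. Tek was at 0 in all libraries, and the part of such cells in the Lmo1 level was not tested.

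The other genes of the pathway were taken from 6 lists with 72 genes, of which 32 passed the filter on low values and 26 were listed at 0 in every library. In the ZnF4 mutant against wt 1 of the 32 was called, higher. Of all genes, 1.43% were called higher and 2.72% in either direction. Of the 32, 6 had an unadjusted limma p under 0.05, against 11.7% of all genes. In the ZnF4 mutant against the ZnF1 mutant 1 was called, higher. Here 1.61% of all genes were called higher and 5.37% in either direction. Of the 32, 5 had an unadjusted limma p under 0.05, against 19.3% of all genes. In the ZnF1 mutant against wt 0 were called, against 0% of all genes, and 4 of the 32 had an unadjusted limma p under 0.05, against 11.3% of all genes. The median log2 difference over the 32 was 0.03 for the ZnF4 mutant against wt, -0.05 for the ZnF1 mutant against wt and -0.04 for the ZnF4 against the ZnF1 mutant. Over all genes tested the medians were 0.04, -0.01 and 0.04.

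The called gene in both comparisons was Kit, the stem cell factor receptor and a known target of the complex in blood progenitors. Kit stood at 16.2 and 15.4 RPKM in the ZnF4 mutant, 1 and 1.6 RPKM in the ZnF1 mutant, with 0.4 and 0.3 RPKM in wt. The groups did not overlap, and the order of the groups was the same as for Lmo1. Kit rose in the ZnF4 mutant by 3.64 against wt (log2, SE 0.18, limma adjusted p = 0.00486) and by 2.88 against the ZnF1 mutant (SE 0.18, adjusted p = 0.00824). In the ZnF1 mutant Kit differed from wt by 0.76 (adjusted p = 0.169).

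The Kit call against wt was lost without ZnF4 mutant replicate 1 (adjusted p = 0.058) or replicate 2 (adjusted p = 0.056), at differences of 3.60 and 3.67. The call against the ZnF1 mutant was lost without any 1 of the 4 libraries compared, at adjusted p of 0.0575 to 0.0972. A fit with 1 library left out keeps a single one in its group. Without ZnF1 mutant replicate 2 and wt replicate 1 the adjusted p was 0.296 against wt and 0.167 against the ZnF1 mutant. The Kit values were known when the lists were drawn up, so this call is not independent evidence on the targets. The other 3 tested targets were not called. Hhex, a homeobox factor of progenitors, stood at 38.6 and 30.6 RPKM in the ZnF4 mutant, 45.3 and 31.3 in the ZnF1 mutant, with 41 and 27.1 in wt. Hbb-b1, a beta globin gene, stood at 0.6 and 0.6 RPKM in the ZnF4 mutant, 0.1 and 3.6 in the ZnF1 mutant, with 12 and 0.2 in wt, again highest in wt replicate 1. Its level is uncertain, since globin genes have near-identical copies.

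Among the 18 LMO, LDB and SSBP relatives 13 were listed at 0 in all libraries, including Lmo3 and Ldb2, the closest relatives of Lmo1 and Ldb1, and none of the 5 tested was called. Lhx2, a LIM homeobox factor that also binds LDB1, stood at 8.1 and 4.6 RPKM in the ZnF4 mutant, 0.8 and 6.2 in the ZnF1 mutant, with 0.5 and 0.2 in wt. Its difference was 2.41 for the ZnF4 mutant against wt (SE 0.67, limma adjusted p = 0.199) and 1.42 for the ZnF1 mutant against wt (adjusted p = 0.589). Without ZnF1 mutant replicate 2 that last difference was 0.42, the lowest of the alternatives.

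The SSBP proteins stabilise LDB1. Ssbp3 stood at 21.1 and 13.7 RPKM in the ZnF4 mutant, 28.2 and 20.9 in the ZnF1 mutant, with 36.5 and 22.8 in wt, with a difference of -0.73 for the ZnF4 mutant against wt (limma adjusted p = 0.524). Ssbp2 stood at 1.5 and 1.5 RPKM in the ZnF4 mutant, 2.3 and 2.4 in the ZnF1 mutant, with 1.2 and 1.5 in wt, with a difference of 0.51 for the ZnF1 mutant against wt (adjusted p = 0.231). The ZnF1 mutant values of Ssbp2 did not overlap those of the other groups. Of all genes tested, 18.3% had both ZnF1 mutant libraries above both wt libraries and 21.8% above both ZnF4 mutant libraries.

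Of the 10 E proteins, other helix-loop-helix partners and ID inhibitors, 6 were tested and none was called. Id2, an inhibitor that keeps E proteins off DNA, stood at 5.7 and 6 RPKM in the ZnF4 mutant, 17.9 and 12.9 in the ZnF1 mutant, with 8.2 and 5.6 in wt. Its difference was -1.24 for the ZnF4 against the ZnF1 mutant (SE 0.24, limma adjusted p = 0.0544) and 1.06 for the ZnF1 mutant against wt (adjusted p = 0.157). With library medians made equal, the first of these passed the threshold (adjusted p = 0.0337). Macrophage markers were also higher in both ZnF1 mutant libraries. Cd68 stood at 58.8 and 47.7 RPKM in the ZnF4 mutant, 161.5 and 140.9 in the ZnF1 mutant, with 55.2 and 45.1 in wt. Tyrobp stood at 19.6 and 19.6 RPKM in the ZnF4 mutant, 83 and 71.1 in the ZnF1 mutant, with 25.4 and 21.1 in wt. The 7 stromal markers summed to 61.2 and 63.4 RPKM in the ZnF4 mutant, 218.5 and 122.8 in the ZnF1 mutant, with 50.2 and 60 in wt, and 1 of them, Lum, was at 0 in all libraries. The part of these cells in the Id2 level was not tested. The related inhibitor Id1 stood at 2.8 and 1.6 RPKM in the ZnF4 mutant, 7.0 and 2.2 in the ZnF1 mutant, with 3.3 and 1.1 in wt, and in the ZnF1 mutant it differed from wt by 0.75 (adjusted p = 0.941). Tcf4, the E protein E2-2, stood at 41.4 and 42.6 RPKM in the ZnF4 mutant, 30.4 and 31 in the ZnF1 mutant, with 27.7 and 31 in wt. The ZnF4 mutant values lay above all others, and the difference from wt was 0.5 (SE 0.14, limma adjusted p = 0.207). Being above both wt libraries held for 17.8% of all genes tested, and above both ZnF1 mutant libraries for 21.7%.

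The 16 blood factors and corepressors that join or neighbour the complex were nearly all transcribed, with 15 tested and none called. Myb, a factor of progenitor growth, stood at 80.8 and 78.3 RPKM in the ZnF4 mutant, 76.6 and 79 in the ZnF1 mutant, with 102 and 116.4 in wt. Both mutants lay below wt without overlap, and the differences were -0.45 for the ZnF4 mutant (limma adjusted p = 0.302) and -0.48 for the ZnF1 mutant (adjusted p = 0.279). These 2 comparisons share the wt libraries. Over all genes tested, both ZnF4 mutant libraries were below both wt libraries for 13.8%, and both ZnF1 mutant libraries for 12.7%. Erg, an ETS factor, stood at 81.9 and 53.5 RPKM in the ZnF4 mutant, 117.7 and 92.8 in the ZnF1 mutant, with 132.2 and 101.3 in wt, with a difference of -0.8 for the ZnF4 mutant against wt (adjusted p = 0.331).

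Gfi1b, a repressor of red cells and megakaryocytes, stood at 3.7 and 2.1 RPKM in the ZnF4 mutant, 2.6 and 1.6 in the ZnF1 mutant, with 6.1 and 3.3 in wt, with a difference of -0.85 for the ZnF1 mutant against wt (limma adjusted p = 0.47). The corepressor gene Sin3a differed by 0.31 between the ZnF4 and the ZnF1 mutant (adjusted p = 0.326). Among the 6 other GATA factors and cofactors only Zfpm1 was tested. Zfpm1, the GATA cofactor FOG1, stood at 25.6 and 14 RPKM in the ZnF4 mutant, 44 and 28.8 in the ZnF1 mutant, with 58.9 and 29.3 in wt, with a difference of -1.09 for the ZnF4 mutant against wt (adjusted p = 0.46). All 3 of its replicate 1 values were above the replicate 2 value of the same group.

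Of the 9 other transcription factor oncogenes of T cell leukaemia, 6 were listed at 0 in all libraries, among them Tlx1, Tlx3, Nkx2-1 and Nkx2-2, and only Mef2c passed the filter. Mef2c, which is also a normal factor of B lineage cells, stood at 71.8 and 68.4 RPKM in the ZnF4 mutant, 42 and 49.9 in the ZnF1 mutant, with 39.3 and 45.6 in wt. The ZnF4 mutant values were above all others, as they were for Tcf4, above wt for 17.8% and above the ZnF1 mutant for 21.7% of all genes tested. The differences were 0.71 against wt (SE 0.17, limma adjusted p = 0.13) and 0.6 against the ZnF1 mutant (adjusted p = 0.124).

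**Figure D5:**
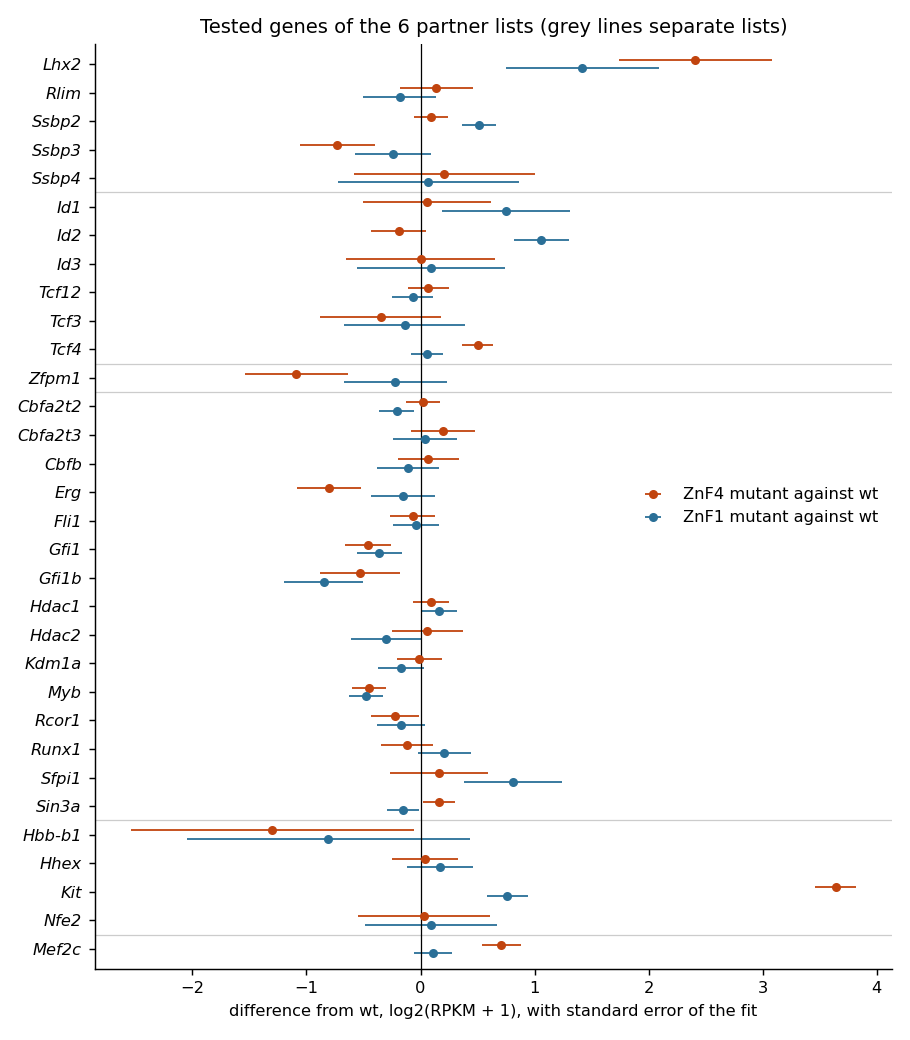
Log2(RPKM + 1) differences from wt of the 32 tested genes of the 6 partner lists, with the standard error of the fit, for the ZnF4 mutant and the ZnF1 mutant, which share the wt libraries. Kit in the ZnF4 mutant, at 3.64, was the only value called.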

How the data were processed

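The deposited table gives RPKM per RefSeq transcript, rounded by the authors to 1 decimal. TopHat, bedtools and build mm9 are named in the submitters' processing notes. Versions, the counting of shared reads and the use of strand are not given in the sources used here. Depth is unknown, since rounding hides the step of 1 read, so no counting interval is given; summed RPKM was 287007 to 345766 per library.

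The 26531 rows were summed to 22099 genes by symbol, and 1 row without a gene was left out. Of 40 symbols that had become numbers, 39 were restored by accession. The test was limma 3.58.1 in R 4.3.3, on log2(RPKM + 1) with a trend in intensity, over the 11345 genes that reached 1 RPKM in 2 or more libraries. One fit of 3 group means held all 6 libraries, with 3 residual and 2.32 prior degrees of freedom. Tests were two-sided, and p-values were Benjamini-Hochberg adjusted over all genes, with a threshold of 0.05. With 2 libraries per group, p-values measure the spread between those libraries. The fit was tested on simulated data. Those libraries were drawn independently, with no shift shared by replicate number, so that test does not bear on such a shift.

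The members and the gene lists were chosen with earlier results of these data known, so no p is given for a member in a comparison with the ZnF4 mutant. Named were all members, per list and comparison the called genes (up to 3 each way) or, with under 2 called, the 2 tested genes of lowest p, and the 3 genes most correlated with a member that ranged by over 1 (log2). One list gene, Spi1, was found as Sfpi1. Promoter sequences came from RefSeq (GRCm38.p6).

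Alternatives were the replicate number as a block, a pseudocount of 0.1, no filter, a minimum of 5 RPKM, only the 4 libraries compared, the highest row per symbol, equal library medians and each library left out in turn. Leaving out ZnF1 mutant replicate 2 and wt replicate 1 together was chosen after seeing the data.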

Additional observations from a re-analysis of the deposited data

How the results depend on the processing

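Without depth, precision at low RPKM is limited by rounding, and leaving out 1 library leaves a single one in its group. The count in the ZnF4 mutant against wt (309) was 176 with a minimum of 5 RPKM, 86 with only the 4 libraries compared, 0 to 88 with 1 library left out and 0 without ZnF1 mutant replicate 2 and wt replicate 1. The count in the ZnF4 against the ZnF1 mutant (609) was 323, 234, 0 to 262 and 0 under the same settings. The partner list count (1 in each of these comparisons) was 0 to 1 with 1 library left out, in both, and 0 without those 2 libraries. For the ZnF4 against the ZnF1 mutant it was 2 without the filter, which adds Zfpm2, and 2 with equal medians, which adds Id2.

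The replicate numbers are shared by label only, with 2 pairs per comparison. The correlation across genes of the deviations from the group mean, between libraries with the same number, stood at 0.715 for the ZnF4 and the ZnF1 mutant, 0.754 for the ZnF4 mutant and wt and 0.5 for the ZnF1 mutant and wt. With the replicate block, 1809 genes were called in the ZnF4 mutant against wt, 1502 in the ZnF1 mutant against wt (0 without it) and 3979 between the ZnF4 and the ZnF1 mutant. With the block the partner list counts were 8 (Erg, Gfi1b, Kit, Mef2c, Myb, Ssbp3, Tcf4 and Zfpm1), 6 (Gfi1b, Id2, Kit, Myb, Sfpi1 and Ssbp2) and 14, among them Id2 (adjusted p = 0.00528, and 0.0179 in the ZnF1 mutant against wt).

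The Lmo1 difference in the ZnF4 mutant against wt (3.49) was 5.84 with a pseudocount of 0.1 and 3 to 3.98 with 1 library left out, and that against the ZnF1 mutant ran from 2.52 to 4.25 over all alternatives. The sign changes of Ldb1 and Lyl1 in comparisons with the ZnF4 mutant stand beside their values. Signs also turned in the ZnF1 mutant against wt. Lmo4 was 0.02 with the highest row per symbol. Lmo4, Ldb1, Lyl1 and Zfpm1 were 0.18, 0.39, 0.82 and 0.57 without ZnF1 mutant replicate 2 and wt replicate 1. With 1 library left out these 4 ran from -0.18 to 0.11, -0.43 to 0.18, -0.59 to 0.5 and -0.71 to 0.27. Without those 2 libraries, replicate 1 of the ZnF1 mutant is set against replicate 2 of wt. Genotype and replicate number cannot then be told apart. Mef2c was -0.12 without the 2 libraries and -0.01 to 0.23 with 1 left out. Hbb-b1 ran from -3.02 to 0.42 in the ZnF4 mutant against wt, -2.53 to 0.91 in the ZnF1 mutant against wt and -1.52 to 0.54 between the ZnF4 and the ZnF1 mutant, reaching 0.42 and 0.54 without the 2 libraries. Id2 in the ZnF4 mutant against wt was 0.05 without the 2 libraries and -0.43 to 0.05 with 1 left out. Hhex ran from -0.25 to 0.33 in the ZnF4 mutant against wt and -0.39 to 0.13 between the ZnF4 and the ZnF1 mutant. Leaving out 1 library of a compared group leaves its replicate numbers unequal to those of the other group. The causes of these turns were not tested. In fits with 1 library in a group, that library is assumed to vary like the others. Lmo2 has no value with a minimum of 5 RPKM.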
